A study of Danio rerio with 8 samples.

Results

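Transcripts of the aminoacyl-tRNA synthetases, the enzymes that load each amino acid onto its transfer RNA, were examined in the injured heart of zebrafish labelled cox7a1-/-. The list held 34 gene symbols of this enzyme family, 19 for cytosolic and 15 for mitochondrial enzymes, and does not hold every synthetase gene of the genome. Of these, 32 were matched to a gene row, among 32520 rows in all, and all 32 passed the filter on low counts that left 17949 genes to test. The symbols hars1 and tars2 had no match under these names in the symbol table and are not among the genes counted below. The list was selected on names within the family. The family itself was picked from earlier results of the comparison of mutant with wildtype pools, so the differences between genotypes below describe these pools and give no independent evidence about the family.

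Adult cox7a1-/- fish and wildtype siblings were compared. The gene cox7a1 encodes a small subunit of complex IV, the last enzyme of the respiratory chain, and the study addressed its part in how the heart responds to injury. All hearts of both genotypes had been cryoinjured, meaning that a region of the ventricle was killed by freezing, and were taken 7 days later. Each library held RNA pooled from 5 cardiac ventricles, with 4 mutant and 4 wildtype pools. No uninjured group was analysed here, and the labels state neither the lesion in cox7a1 nor the sex or exact age of the fish. With pooled fish, variation from fish to fish was not seen.

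A synthetase joins an amino acid to the end of its matching transfer RNA at the cost of ATP, and the ribosome then takes the charged transfer RNA. Animals keep a set of enzymes for the cytosol and another, encoded in the nucleus and imported, for the mitochondrial ribosome, although in mammals the lysine and glycine genes serve both places. The enzymes fall into class I and class II, which have unrelated catalytic folds. In mammals several cytosolic members sit together in a multisynthetase complex, and many cytosolic synthetase genes are targets of ATF4, the transcription factor made when uncharged transfer RNA activates the kinase GCN2.

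The pools held between 41556101 and 69057989 counts. The targeted gene cox7a1 had 59.52, 113.1, 88.46 and 193.9 CPM (counts per 1000000 counts of the library, scaled with TMM factors) in mutant pools, against 209.7, 278, 285.9 and 210.6 CPM in wildtype pools, so the mutant pools were lower without overlap while the transcript was still present in each. Its log2 fold change was -1.11 ± 0.295 (SE; edgeR adjusted p = 0.0776). Mutant replicate 4, which had the highest cox7a1 of the mutant pools, also stood apart in its long against short genes. The median deviation of long genes less that of short genes was -0.204 log2 units in that pool, 0.025 to 0.198 in the other mutant pools and -0.103 to 0.025 in wildtype pools. Cardiomyocyte genes such as MYH7 (42970 to 55160 CPM over the 8 pools) and MYL7 (8422 to 14280 CPM) were abundant in every pool.

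Transcripts of 6 of the 18 cytosolic synthetases were higher in mutant ventricles, by 1.39-fold to 1.68-fold, and none was lower. The log2 fold change was positive in each of the 18 cytosolic genes, from 0.06 to 0.75, with a median of 0.401, against a median of 0.003 over all genes tested, of which 50.4% were positive. In edgeR's quasi-likelihood test, adjusted over all genes, 6 of the 18 rose and none fell. Over all genes 2.02% were called in either direction and 1.14% were called higher. In 15 of the 18 genes each mutant pool lay above each wildtype pool, which held for 6.27% of all genes tested. These counts come from the comparison that the family was picked from, and nothing is read from them.

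**Figure D1:**
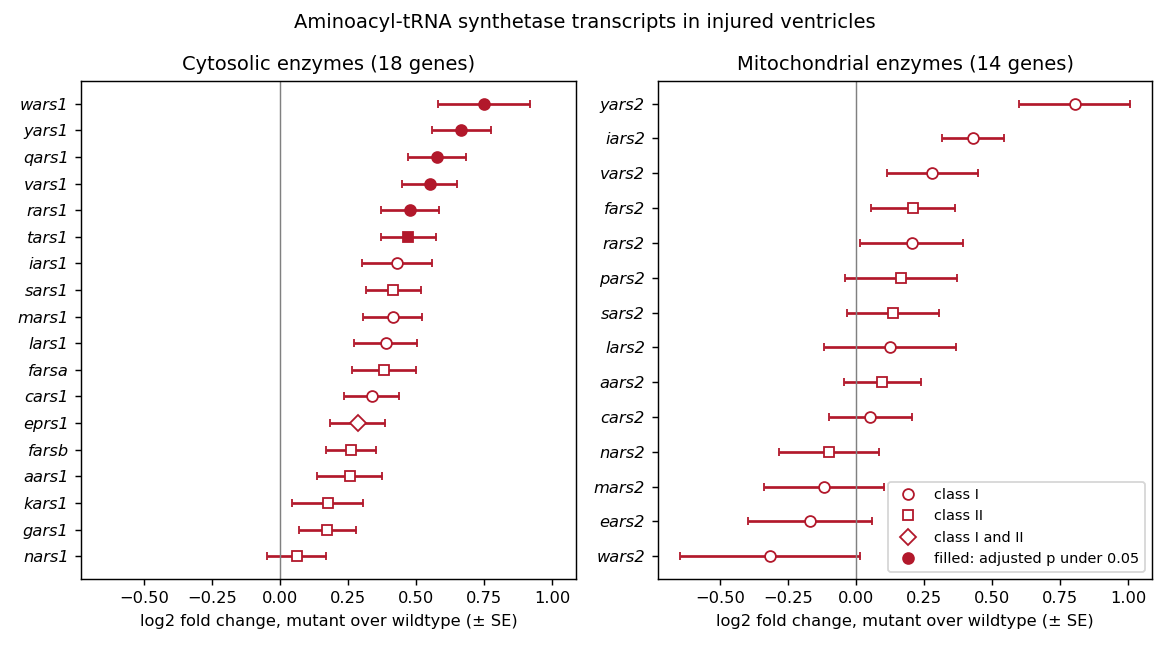
Log2 fold change of mutant over wildtype pools with its standard error for 18 cytosolic and 14 mitochondrial synthetase genes, with circles for class I, squares for class II, a diamond for the fused eprs1 and filled symbols for an adjusted p under 0.05. Each cytosolic gene lies to the right of 0, and the 14 mitochondrial genes spread on both sides of it.

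Tyrosine and glutamine enzymes had the smallest p of the family. The gene yars1 (ENSDARG00000035913; GRCz11, chromosome 19, 30884706 to 30895273, plus strand), for tyrosine, had 29.88, 28.55, 31.79 and 31.08 CPM in mutant pools, against 21.95, 18.78, 18.35 and 17.39 CPM in wildtype pools. The mutant pools were close together and well above the highest wildtype pool. Its log2 fold change was 0.67 ± 0.109 (SE), or 1.59-fold (edgeR adjusted p = 0.0159), ranking 72 by p among all genes tested. The gene qars1 (ENSDARG00000010316; chromosome 8, 46353203 to 46386060, minus strand), for glutamine, had 41.68, 38.93, 46.37 and 43.62 CPM in mutant pools, against 28.18, 26.7, 32.07 and 27.5 CPM in wildtype pools. The genotypes did not overlap, and the log2 fold change was 0.58 ± 0.106 (adjusted p = 0.0246).

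The valine, threonine and arginine enzymes rose by similar amounts. The gene vars1 (ENSDARG00000044575; chromosome 16, 10429770 to 10475814, plus strand), whose product binds the elongation factor complex in mammals, had 50.2, 43.9, 51.58 and 49.45 CPM in mutant pools, against 34.32, 35.1, 33.56 and 30.34 CPM in wildtype pools. Even the lowest mutant pool, replicate 2, was above the highest wildtype pool, and the log2 fold change was 0.55 ± 0.102 (edgeR adjusted p = 0.0249). The gene tars1 (ENSDARG00000013250; chromosome 5, 44346691 to 44371177, plus strand), for threonine, had 40.65, 40.63, 44.79 and 41.73 CPM in mutant pools, against 33.85, 29.23, 28.68 and 29.33 CPM in wildtype pools. Wildtype replicate 1 stood above the other wildtype pools and still below each mutant pool (log2 fold change 0.47 ± 0.101, adjusted p = 0.0414). The gene rars1 (ENSDARG00000054530; chromosome 21, 35327328 to 35378321, plus strand), for arginine, had 37.15, 34.21, 38.39 and 42.28 CPM in mutant pools, against 29.34, 26.55, 27.55 and 25.74 CPM in wildtype pools. Mutant replicate 4 was the highest, and the genotypes did not overlap (0.48 ± 0.105, adjusted p = 0.0437).

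The tryptophan enzyme had the largest cytosolic fold change and the lowest counts. The gene wars1 (ENSDARG00000100954; chromosome 17, 734133 to 735537, minus strand) encodes an enzyme that interferon induces in mammals. It had 9.143, 7.661, 8.289 and 10.4 CPM in mutant pools, against 5.564, 5.771, 3.904 and 5.881 CPM in wildtype pools. The genotypes did not overlap, with a log2 fold change of 0.75 ± 0.17, or 1.68-fold (edgeR adjusted p = 0.0493). Its annotated row spans 915 exonic bases, the shortest of the family, and it held 196 to 644 counts per pool.

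**Figure D2:**
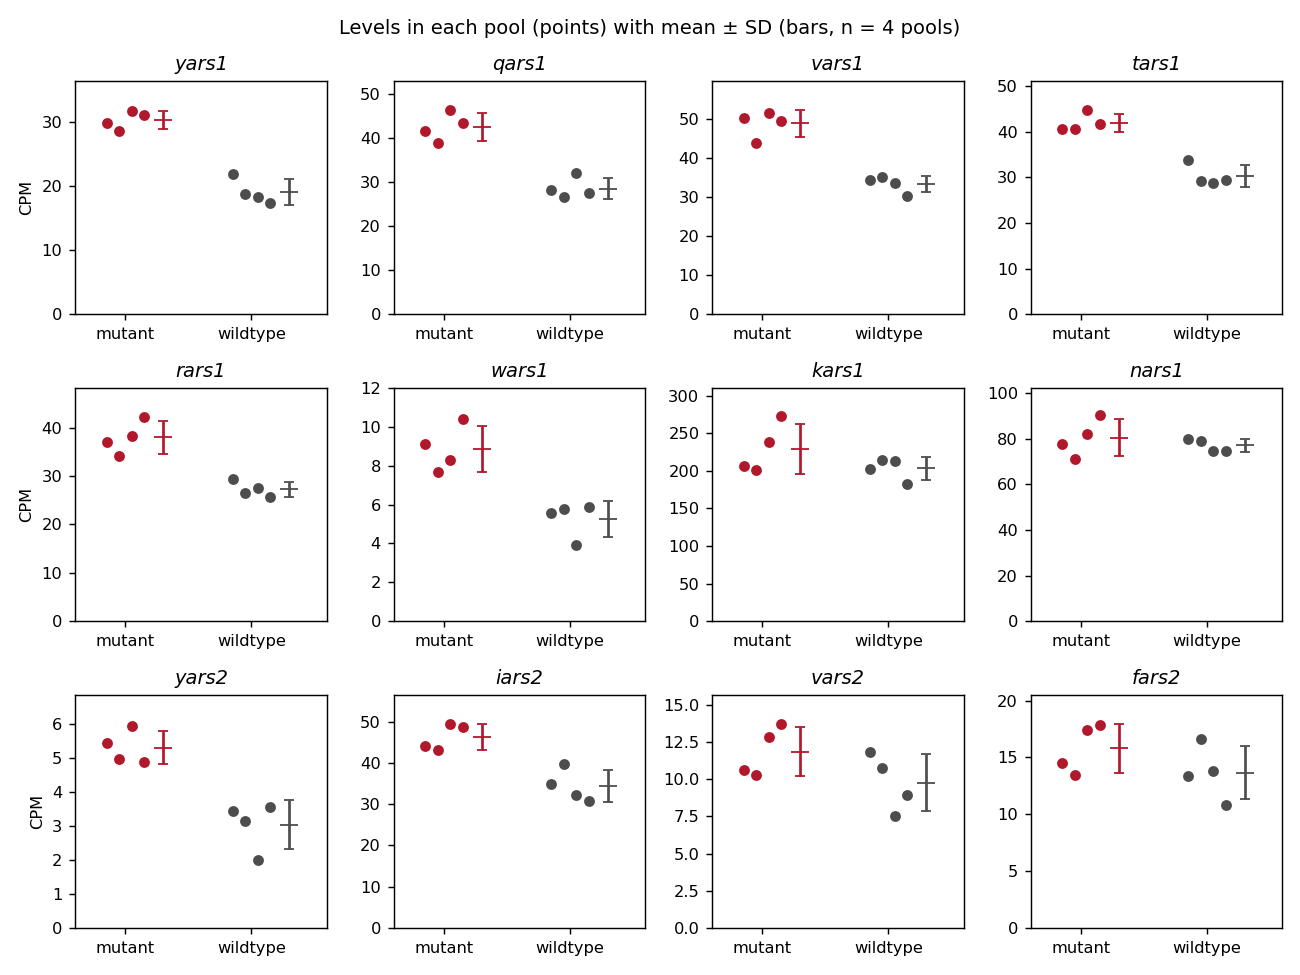
CPM in each of 4 mutant and 4 wildtype pools, in order of replicate number, with the mean and SD beside the points, for the 6 cytosolic genes that passed the test, for kars1 and nars1, and for the 4 mitochondrial genes with the smallest p. The genotypes are separate in the first 6 panels and in yars2 and iars2, and overlap in kars1, nars1, vars2 and fars2.

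A further 9 cytosolic genes did not pass the test although their mutant pools all lay above the wildtype pools. Of these, sars1, for serine, averaged 52.24 ± 3.6 CPM in mutant and 39.17 ± 2.36 CPM in wildtype pools (SD, n = 4 each), with a log2 fold change of 0.42 ± 0.101 (SE; edgeR adjusted p = 0.0612). The methionine gene mars1, whose product also charges the initiator transfer RNA, averaged 37.56 ± 3.14 CPM in mutant and 28.2 ± 2.41 CPM in wildtype pools (0.41 ± 0.109, adjusted p = 0.0769). The leucine gene lars1, whose product also senses leucine for mTORC1 in mammals, had 28.92, 27.34, 34.12 and 28.38 CPM in mutant pools, against 25.44, 20.33, 22.33 and 22.61 CPM in wildtype pools (0.39 ± 0.115, adjusted p = 0.11). These pools were separate by a narrow margin, since wildtype replicate 1 was close to the lowest mutant pool. The isoleucine gene iars1 had a log2 fold change of 0.43 ± 0.129, the cysteine gene cars1 0.34 ± 0.1 and the fused glutamate and proline gene eprs1 0.29 ± 0.101, with adjusted p-values of 0.112, 0.111 and 0.169. The phenylalanine enzyme is built from the products of farsa and farsb. Those 2 genes had log2 fold changes of 0.38 ± 0.117 and 0.26 ± 0.0924 (adjusted p = 0.118 and 0.17), and farsb had the smallest relative spread of the cytosolic genes among wildtype pools, 1.74% of its mean. The glycine gene gars1 also had separate pools, with a log2 fold change of 0.17 ± 0.103 (adjusted p = 0.408).

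In the alanine, lysine and asparagine genes the genotypes overlapped. The gene aars1 averaged 79.16 ± 4.39 CPM in mutant and 66.31 ± 8.69 CPM in wildtype pools (SD, n = 4 each), and its wildtype replicate 1, at 78 CPM, was within the mutant range (log2 fold change 0.26 ± 0.118, edgeR adjusted p = 0.283). The gene kars1 had 205.8, 200.4, 238.3 and 272.5 CPM in mutant pools, against 202.4, 214.2, 213.3 and 182.2 CPM in wildtype pools. Only mutant replicates 3 and 4 exceeded the wildtype range, and its log2 fold change was 0.18 ± 0.13 (adjusted p = 0.523). The gene nars1 averaged 80.37 ± 8.07 CPM in mutant and 77.04 ± 2.78 CPM in wildtype pools, the smallest log2 fold change of the cytosolic genes at 0.06 ± 0.108 (adjusted p = 0.818).

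Within the cytosolic genes the values lay higher for class I than for class II. The 9 class I genes ran from 0.337 to 0.749 with a median of 0.478, and the genotypes were separate in all 9. The 8 class II genes ran from 0.061 to 0.471 with a median of 0.258, and the genotypes were separate in 5 of them. Of the 6 genes that rose, 5 were class I and tars1 was class II. The eprs1 product holds a domain of each class and was left out of both counts. This split was looked at after the values were seen and was not tested. The mitochondrial genes had medians of 0.124 in class I (9 genes) and 0.136 in class II (5 genes). Membership in the multisynthetase complex divided the cytosolic genes less: its 7 members had a median of 0.413 with 2 genes higher, and the 11 genes outside it a median of 0.383 with 4 higher.

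Mitochondrial synthetase transcripts gave smaller and less uniform values. None of the 14 genes passed edgeR's test. An unadjusted p under 0.05 was found in 2 of them, against 3235 of the 17949 genes tested. DESeq2 called 2 higher, with 3.45% of all genes called higher, and limma-voom called 0, with 1.25% of all genes called higher. Of the 14, 10 had a positive log2 fold change and 4 a negative one, with a median of 0.130. Their standard errors were larger, with a median of 0.186 against 0.107 for the cytosolic genes, and their counts lower, from 51 to 3018 per gene and pool against 196 to 16876. Whether the cytosolic and mitochondrial groups differ in their response was not tested.

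The mitochondrial tyrosine and isoleucine enzymes were the 2 with separate genotypes. The gene yars2 (ENSDARG00000077299; chromosome 25, 2263857 to 2277132, plus strand) had 5.441, 4.965, 5.937 and 4.892 CPM in mutant pools, against 3.454, 3.15, 1.992 and 3.564 CPM in wildtype pools. Each mutant pool was above each wildtype pool, and the log2 fold change of 0.80 ± 0.203 (edgeR adjusted p = 0.0691) was the highest of all 32 genes. The gene iars2 (ENSDARG00000044134; chromosome 17, 25590127 to 25611557, plus strand) had 44, 43.09, 49.36 and 48.73 CPM in mutant pools, against 34.9, 39.75, 32.31 and 30.67 CPM in wildtype pools. Those pools were also separate, and its log2 fold change of 0.43 ± 0.113 (adjusted p = 0.0769) was close to that of its cytosolic counterpart iars1.

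The next mitochondrial genes by p overlapped between genotypes. The gene vars2, for valine, had 10.66, 10.27, 12.82 and 13.71 CPM in mutant pools, against 11.86, 10.74, 7.529 and 8.95 CPM in wildtype pools (log2 fold change 0.28 ± 0.167, edgeR adjusted p = 0.413). The gene fars2, the single-chain phenylalanine enzyme of mitochondria, had 14.47, 13.44, 17.39 and 17.87 CPM in mutant pools, against 13.38, 16.63, 13.8 and 10.85 CPM in wildtype pools (0.21 ± 0.154, adjusted p = 0.52). The gene rars2, for arginine, had 5.798, 5.371, 5.519 and 7.524 CPM in mutant pools, against 6.313, 5.889, 4.96 and 3.861 CPM in wildtype pools (0.20 ± 0.189, adjusted p = 0.627). In all 3 genes the highest mutant pool was replicate 4. The gene wars2, for tryptophan, had 1.249, 1.074, 1.121 and 2.389 CPM in mutant pools, against 1.6, 2.367, 1.335 and 2 CPM in wildtype pools. Mutant replicates 1 to 3 lay below the wildtype range and replicate 4 above it, and the log2 fold change of -0.32 ± 0.33 (adjusted p = 0.669) had the largest standard error of the family. The gene aars2, for alanine, had 7.024, 8.937, 7.542 and 9.203 CPM in mutant pools, against 8.389, 7.688, 6.912 and 7.623 CPM in wildtype pools, with 2 mutant pools above the wildtype range (0.10 ± 0.141, adjusted p = 0.778).

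Of the remaining mitochondrial genes, pars2 (proline), sars2 (serine), lars2 (leucine) and cars2 (cysteine) had log2 fold changes of 0.17, 0.14, 0.12 and 0.05, and nars2 (asparagine), mars2 (methionine) and ears2 (glutamate) -0.10, -0.12 and -0.17. All 7 overlapped between genotypes, with edgeR adjusted p-values from 0.732 to 0.898. The gene ears2 had 6.177, 5.634 and 6.838 CPM in mutant replicates 1 to 3 and 11.46 CPM in replicate 4, against 6.93 to 10.49 CPM in wildtype pools. The gene lars2 likewise had its highest value, 9.316 CPM, in mutant replicate 4.

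The mean level spread more from pool to pool in the mitochondrial than in the cytosolic genes, which was not tested. The mutant pools ranked in the same order in both groups. The mean log2 level of the 18 cytosolic genes was 5.559, 5.487, 5.613 and 5.660 in mutant replicates 1 to 4, against 5.271, 5.176, 5.170 and 5.132 in wildtype replicates 1 to 4, so that the genotypes were separate and the pools of each genotype close together. Summed over the genes, cytosolic synthetase transcripts took 1079 ± 67 CPM in mutant and 873.2 ± 35.6 CPM in wildtype pools (SD, n = 4 each). The mean log2 level of the 14 mitochondrial genes was 2.720, 2.645, 2.735 and 3.009 in mutant pools, against 2.709, 2.832, 2.558 and 2.515 in wildtype pools. Here the genotypes overlapped, and mutant replicate 4 stood above the other 7 pools. Among the mutant pools, replicate 4 held the highest value in 9 of 14 mitochondrial and 10 of 18 cytosolic genes, and replicate 2 the lowest in 8 and 13. Without mutant replicate 4 the medians were 0.364 for cytosolic and 0.058 for mitochondrial genes. In that case 4 cytosolic genes were called, with 1.26% of all genes called higher. Lars2 then had a log2 fold change of -0.149. With each library's trend on exon length removed, the medians were 0.396 for cytosolic and 0.144 for mitochondrial genes. Calls were then made in 7 cytosolic genes, with 1.43% of all genes called higher.

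**Figure D3:**
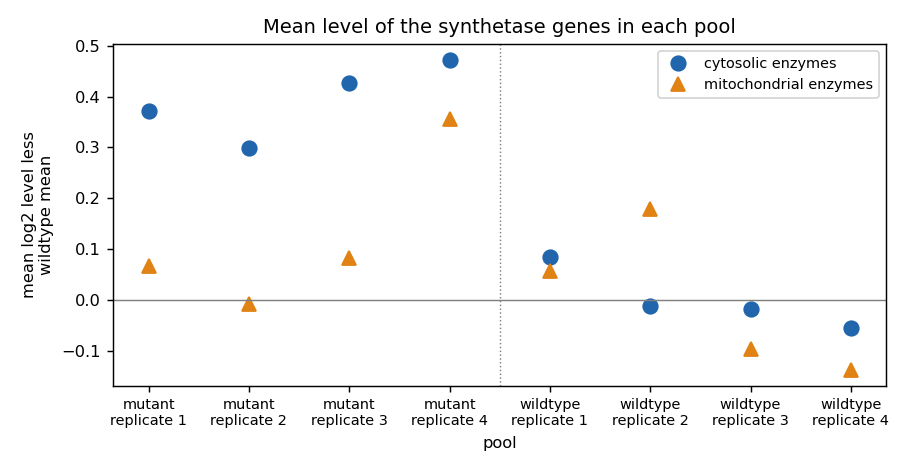
Mean over genes of the log2 level less the wildtype mean of the same gene, for 18 cytosolic genes (circles) and 14 mitochondrial genes (triangles) in each mutant pool (left) and wildtype pool (right). Cytosolic means are 0.299 to 0.473 in mutant pools and -0.055 to 0.084 in wildtype pools, and the mitochondrial mean is highest, 0.356, in mutant replicate 4.

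Per kilobase of exon, cytosolic enzymes were more abundant than mitochondrial ones. In wildtype pools the 18 cytosolic genes ran from 4.228 CPM per kilobase (lars1) to 38 CPM per kilobase (kars1) with a median of 12.12. The 14 mitochondrial genes ran from 1.225 (aars2) to 6.585 CPM per kilobase (fars2) with a median of 2.371. The lysine gene kars1 had 42.9 ± 6.24 CPM per kilobase in mutant and 38 ± 2.78 in wildtype pools (SD, n = 4 each). It was followed in wildtype pools by nars1 at 31.46 ± 1.14 and gars1 at 28.71 ± 2.29, whose ranges of mean ± SD overlapped, and then by farsa at 18.38 ± 1.41 and sars1 at 16.52 ± 0.997. Neighbours from sars1 down to aars1 lay within their spread, with eprs1 at 15.02 ± 0.879, farsb at 14.97 ± 0.26 and aars1 at 14.83 ± 1.94. Among mitochondrial genes fars2 (6.585 ± 1.14), ears2 (5.337 ± 0.97) and cars2 (5.069 ± 0.912) overlapped at the top of the order.

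Across the 18 cytosolic genes, Spearman's rank correlation between the level per kilobase over all pools and the log2 fold change was -0.659. The most abundant genes per kilobase, kars1, nars1 and gars1, were also the 3 with the smallest differences between genotypes. The genes share the same 8 libraries and are not independent, so this is a description only. Across the 14 mitochondrial genes the same correlation was 0.301.

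For 12 amino acids both a cytosolic and a mitochondrial gene were measured, which gives 13 pairs because farsa and farsb each pair with fars2. In all 13 the cytosolic gene had the higher wildtype level per kilobase, by 1.13-fold for cysteine (cars1 and cars2) to 15.8-fold for asparagine (nars1 and nars2), with a median of 3.66-fold. In 12 of the 13 pairs the cytosolic gene also had the higher log2 fold change. The exception was tyrosine, where both yars1 (0.67) and yars2 (0.80) had large values for the family. For isoleucine the pair was nearly equal at 0.4292 (iars1) and 0.4280 (iars2). The widest gap was for tryptophan, at 0.75 for wars1 and -0.32 for wars2. No difference within a pair was tested.

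**Figure D4:**
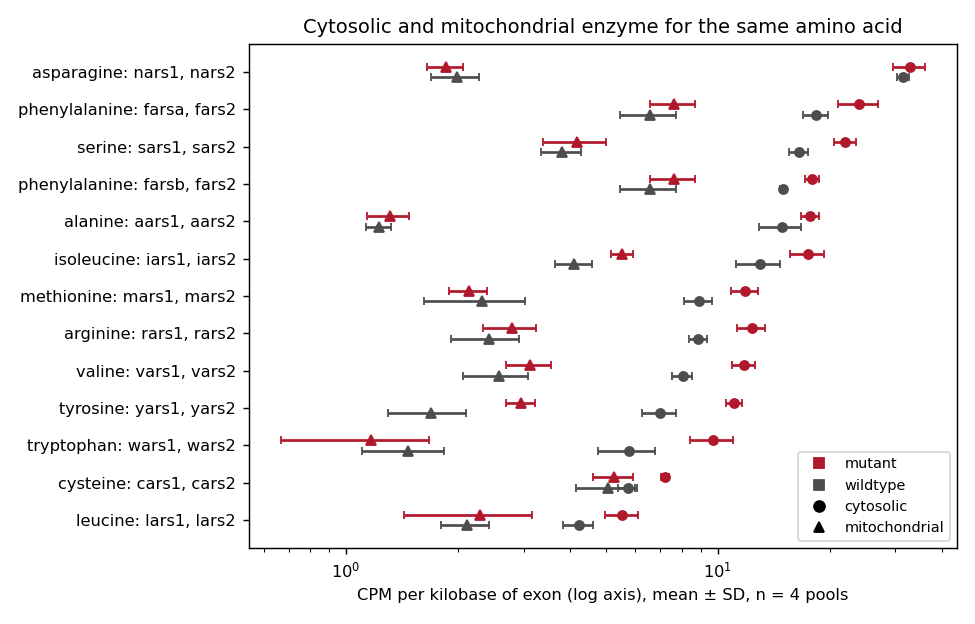
Level in CPM per kilobase of exon on a log axis, mean and SD over 4 pools, for the cytosolic (circles) and mitochondrial (triangles) gene of the same amino acid in mutant (red) and wildtype (grey) pools. The circles lie to the right of the triangles in every row, closest for cysteine.

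The count of called cytosolic genes rested on having all 8 pools. With 1 pool left out, the number called higher was 1, 3, 0 and 4 without mutant replicates 1, 2, 3 and 4, and 1, 0, 0 and 3 without wildtype replicates 1, 2, 3 and 4. The number of genes called higher over the whole transcriptome was also below 205 in 6 of these 8 cases, and as low as 29 without mutant replicate 3. The call of yars1 was lost in 3 of the 8 cases (edgeR adjusted p up to 0.0635, without mutant replicate 3), those of qars1 and vars1 in 5, that of tars1 in 7 and those of rars1 and wars1 in 8. In each of the 8 cases all 18 log2 fold changes were above 0, the lowest being that of nars1 without mutant replicate 4, which was 0.000 after rounding. For 15 of the 18 genes this was all but fixed beforehand, since each mutant pool lay above each wildtype pool. The kept signs are therefore a description only. The cytosolic median was between 0.357 and 0.433 in these 8 cases. Library totals in place of TMM factors gave no cytosolic call, with a median of 0.360 against -0.032 over all genes.

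**Figure D5:**
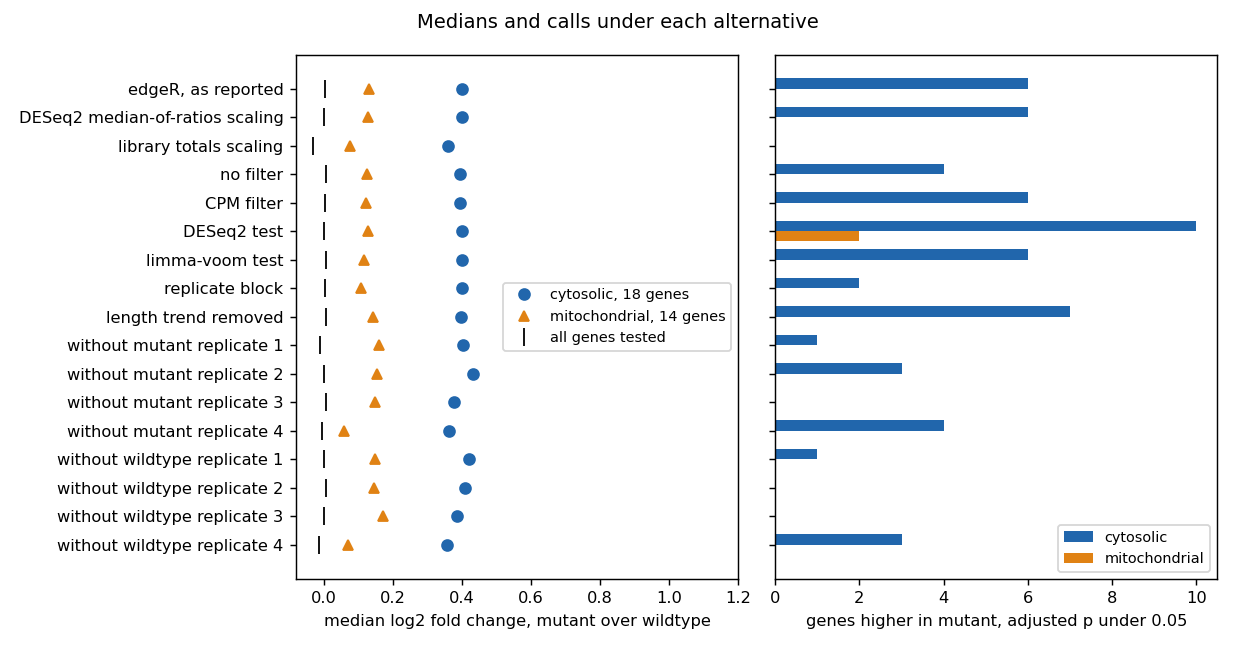
Left, the median log2 fold change of 18 cytosolic genes (circles), 14 mitochondrial genes (triangles) and all genes tested (ticks) under the reported fit and 16 alternatives; right, the number of genes of each group called higher in mutant pools. The cytosolic median stays between 0.357 and 0.433 while the number of calls runs from 0 to 10.

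Genes that work beside the synthetases gave few differences. The scaffold proteins that hold the multisynthetase complex together, AIMP1, AIMP2 and EEF1E1, were not called in 4 rows, with a median log2 fold change of 0.020. EEF1E1 had the smallest p of them (0.30 ± 0.187, edgeR adjusted p = 0.43). Of 7 cytosolic elongation factor rows, which deliver charged transfer RNA to the ribosome or recycle the factor that does, none was called and the median was -0.090. The most abundant, eef1a1l1, had 0.18 ± 0.139, and the smallest p was that of an EEF1A1 row at 0.4178 to 0.6485 CPM in mutant and 0.7326 to 1.135 CPM in wildtype pools (-0.83 ± 0.366, adjusted p = 0.258).

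Among 4 mitochondrial elongation factors none was called. GFM1, the translocation factor, had 43.73, 38.57, 48.7 and 60.16 CPM in mutant pools, against 36.16, 38.25, 31.65 and 28.93 CPM in wildtype pools, separate by a narrow margin (0.50 ± 0.149, edgeR adjusted p = 0.11). The route that makes mitochondrial glutaminyl-tRNA and formyl-methionyl-tRNA, in place of separate synthetases, had no call in 4 genes, and its median was -0.161. GATB, a subunit of the amidotransferase, had -0.40 ± 0.16 (adjusted p = 0.216). None of 4 editing genes was called (median -0.025), and DTD2 had the smallest p of them (0.54 ± 0.323, adjusted p = 0.415). None of 12 genes of transfer RNA maturation and export was called, with 8 of 12 positive and a median of 0.084. TRIT1, which modifies a base beside the anticodon, had the smallest p (0.48 ± 0.178, adjusted p = 0.188). The mutant pools lay above the wildtype pools in the exporter XPOT (0.23 ± 0.101) and in PRORP (0.19 ± 0.138), a nuclease of mitochondrial transfer RNA. Such separation held for 6.27% of all genes tested.

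In the list of amino acid sensing and the ATF4 arm, 1 of 21 rows rose, 17 were positive and the median was 0.180. Over all genes 1.14% were called higher. Mutant pools all lay above wildtype pools in 2 of the 21 rows, and in 6.27% of all genes tested. The gene that rose was mthfd2, a mitochondrial folate enzyme, at 60.39, 60.39, 70.12 and 66.16 CPM in mutant pools, against 47.39, 43.69, 41.47 and 47.36 CPM in wildtype pools (0.51 ± 0.104, edgeR adjusted p = 0.0341). ASNS, which makes asparagine, also had separate genotypes (0.41 ± 0.121, adjusted p = 0.106). The factor transcripts atf4a (-0.01 ± 0.134) and atf4b (0.24 ± 0.225) and the sensor kinase EIF2AK4, also known as GCN2 (0.16 ± 0.128), overlapped between genotypes. CHAC1, a stress-induced enzyme that breaks down glutathione, was singled out after its values were seen. It ran from 265.6 to 601.5 CPM in mutant pools and from 78.02 to 817.6 CPM in wildtype pools, a far wider spread than in any synthetase gene. ATF3 of the same list also spread widely, from 49.12 to 365.5 CPM in mutant and from 5.99 to 326.3 CPM in wildtype pools. Its log2 fold change was 0.85 ± 0.948 (edgeR adjusted p = 0.696).

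In bulk tissue, more cells of a type and more RNA per cell cannot be told apart. Of the marker lists, 10 rows for ventricular cardiomyocytes had no call and a median of 0.013, although actc1a had separate genotypes (0.42 ± 0.154), with summed levels of 76980 to 100500 CPM in mutant and 77380 to 87360 CPM in wildtype pools. Summed levels of 4 macrophage markers were 498 to 701.5 CPM in mutant and 617.1 to 792 CPM in wildtype pools, those of 9 epicardium and fibroblast rows 4395 to 6191 CPM in mutant and 3037 to 5993 CPM in wildtype pools. The 4 endothelial markers summed to 888.4 to 1216 CPM in mutant and 980 to 1260 CPM in wildtype pools. The 3 neutrophil markers summed to 6.167 to 19.51 CPM in mutant and 6.162 to 16.85 CPM in wildtype pools. The 4 smooth muscle rows summed to 402.7 to 443.6 CPM in mutant and 360.5 to 500.2 CPM in wildtype pools. The atrial list holds a row named MYH6 and another named myh6, and which of them is the atrial gene was not settled. No row was tested under the name of the ventricular marker vmhc. The 3 rows of the atrial list summed to 1815 to 2685 CPM in mutant and 1352 to 1671 CPM in wildtype pools. These sums did not overlap, but they were not read as a level of atrial tissue. Most of that sum came from a single MYH6 row (0.58 ± 0.137, edgeR adjusted p = 0.0566). It had 1701 to 2330 CPM in mutant and 1230 to 1454 CPM in wildtype pools. A second myh6 row (0.25 ± 0.353, adjusted p = 0.763) and NR2F1 (-0.51 ± 0.185) overlapped between genotypes. The 3 erythrocyte markers were all positive, from 0.492 to 0.959, and summed to 607.5 to 1592 CPM in mutant and 543 to 916.1 CPM in wildtype pools. None of the markers was called, and their part in the synthetase values was not tested.

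Position in the genome and in the annotation bears on a few of the genes. On chromosome 15, which carries cox7a1, lie farsb at 21.9 Mb, nars2 at 10.8 Mb and sars2 at 5.74 Mb from it, with log2 fold changes of 0.26, -0.10 and 0.14. Exons of lars1 overlap PLAC8L1 on the same strand, those of kars1 overlap gcshb and those of aars1 overlap an unnamed row. The command in the file header has no option that counts reads shared by overlapping genes, so the levels of these genes may be too low in both genotypes. Exons of farsb, yars2, iars2, mars2 and cars2 overlap a gene on the other strand, which strand-specific counting keeps apart.

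Some synthetase rows outside the list were looked at after their values were seen. A second leucine row, lars1a, had a log2 fold change of 0.49 ± 0.155 with separate genotypes (edgeR adjusted p = 0.127), and may share reads with lars1. The row that the symbol table names HARS2, a histidine enzyme, had 0.21 ± 0.124 (adjusted p = 0.404). Whether that row is the cytosolic gene hars1 of the list or a mitochondrial gene was not settled, so it was counted in neither group. The row of tars3, a threonine enzyme related to tars1, had -0.14 ± 0.176 (adjusted p = 0.733). None of these was called.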

How the data were processed

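RNA was measured by sequencing in 8 pools of zebrafish ventricles. A directional kit was used, per the labels. The authors deposited unscaled gene counts, which featureCounts 2.0.3 made over exons with strand setting 2 and the Ensembl 109 annotation of GRCz11, per the file headers. The submitters' processing notes also name fastp, STAR, MultiQC and FastQC, with no version. Exon lengths were taken as deposited. Columns were matched to samples through the library numbers in the labels, and 0 columns were left unused.

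Symbols came from a table of gene IDs in which 29201 of 32520 rows had one, mostly as capitals; members are printed in lower case, and a final a or b was dropped for related genes without a match. Genes were kept by filterByExpr (minimum count 10). Counts were scaled by TMM, and genotypes compared with edgeR 4.0.16's quasi-likelihood test (R 4.3.3), genotype as the only term, with Benjamini-Hochberg adjustment over all genes at 0.05. The SE of a log2 fold change is its size over the square root of F. Log2 levels used a prior count of 2. The fit was first tested on made-up counts with known changes. DESeq2 1.42.0 and limma-voom (limma 3.58.1) were among the alternatives. P-values weigh the difference between genotypes against the spread between pools. Values in every pool are printed for members past the threshold, the 6 smallest p in each group, and the highest and lowest level per kilobase in each group; of related lists, called members and the smallest p. Other genes of those lists, and the split by catalytic class, were picked after their values were seen. The members, lists and rules were chosen with earlier results of these data known. No promoter or protein sequences were used here, so planned motif and protein comparisons were not run.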

Additional observations from a re-analysis of the deposited data

Results flagged for a closer look

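In 4 of the 64 sets of 4 pools (32 genes in 2 genotypes), 1 pool was far from the other 3, as judged by its gap to the nearest pool over the range of the set against Dixon's limit for 4 values; chance flags about 1 in 20 such sets. Mutant replicate 4 was high in wars2 (0.867). Wildtype replicate 1 was high in tars1 (0.876), wildtype replicate 3 low in wars1 (0.84) and wildtype replicate 4 low in sars2 (0.836).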

How the results depend on the processing

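Log2 fold changes of single genes turned sign 4 times, each in a mitochondrial gene that was never called. With 1 pool left out, cars2 ran from -0.027 (without mutant replicate 3; -0.020 without wildtype replicate 1) to 0.183, lars2 from -0.149 (without mutant replicate 4) to 0.283 and mars2 from -0.292 to 0.080 (without wildtype replicate 2). The 6 cytosolic calls became 0 with library totals (60 genes higher and 97 lower in all), 10 with the DESeq2 test (619 and 488) and 2 with a replicate block, qars1 and yars1 (126 and 84). Mitochondrial calls were 0 except for 2 with the DESeq2 test, iars2 and yars2. With no filter 4 cytosolic genes were called, with 0.948% of all genes called higher. With the CPM filter, median-of-ratios scaling or limma-voom 6 were called each time. Of all genes, 1.56%, 1.15% and 1.25% were then called higher. With each pool left out, cytosolic calls ran from 0 to 4, and over all genes 29 to 273 were higher and 37 to 200 lower, against 205 and 158. The cytosolic and mitochondrial medians moved by less than the spread between pools under each alternative. Leaving out 1 pool could hardly move them further, and the other alternatives reuse the same counts. This is therefore a description and no evidence of stability. The labels do not say whether replicate numbers pair the pools. The correlations of same-numbered pools' deviations were 0.246, -0.071, 0.036 and -0.066, too few values to settle it. The block result is therefore given as an alternative. The cause of the lost calls was not tested. Counts per gene and pool were 51 to 3018 in mitochondrial and 196 to 16876 in cytosolic genes; the part of depth in the calls was not tested.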
